A study of Mus musculus with 3 samples.

Results

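The genes described here are 34 genes of the unfolded protein response and of the cell's response to amino acid shortage. The cells were CLDE, a line of dental epithelium that was derived from the mouse cervical loop. The genes were found as the probes whose gene name in the scanner files is on the list, which gave 34 of the 24812 named genes on the array. Of the 34, 17 are known targets of the transcription factor ATF4 and 5 are sensors and regulators of the response. A further 9 are chaperones and folding enzymes of the endoplasmic reticulum (ER), and 3 belong to ER-associated degradation (ERAD).

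There were 3 groups with 1 array each, all harvested at 72 h: cells given a mock transfection, cells given non-targeting control siRNAs (siNeg) and cells given an siRNA duplex against keratin 15 (siKrt15). The series title names the question, which is whether keratin 15 controls proliferation in the outer enamel epithelium. With 1 array per group there was no replicate check and no test, so every difference below is between 2 arrays only. The error given with a difference is the SD of the scanner's error model, which was 0.20 on the log2 scale for most of these genes. It is not a measured spread, and it leaves out variation between cultures. For the siNeg and siKrt15 arrays, the title and the description name opposite treatments. Groups follow the titles here. Krt15 itself, read by 1 probe, had a processed signal of 2638 on the mock array, 1647 on the siNeg array and 267 on the siKrt15 array. That order goes with the titles. If the descriptions were right instead, every difference between siKrt15 and siNeg below would change sign, the values against mock would be exchanged between siKrt15 and siNeg, and the counts of siKrt15 as the lowest or highest array would not hold.

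Unfolded protein in the ER is sensed by 3 membrane proteins: the kinase PERK (gene Eif2ak3), the kinase and nuclease IRE1 (Ern1) and the precursor of a transcription factor, ATF6. PERK phosphorylates the initiation factor eIF2alpha, as do kinases that sense amino acid shortage, and this slows general translation while ATF4 is translated more. ATF4 then drives genes of amino acid synthesis and uptake and, under lasting stress, genes that slow growth or promote cell death. IRE1 splices the messenger RNA of Xbp1, and the XBP1 and ATF6 proteins drive ER chaperones and ERAD. Splicing of Xbp1, cleavage of ATF6 and phosphorylation of eIF2alpha are not measured by transcript arrays of this kind.

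The ATF4 targets and the ER chaperones are known to be read through different promoter elements, and the sequences are shown because the comparison below is between these lists. RefSeq promoter windows on GRCm38.p6, from 250 bases before to 50 bases after a gene's start, were found for 32 of the 34 genes, all but Atf6 and Slc7a5. Both strands were searched. The C/EBP-ATF response element, searched as TGATGNAA, was present in 5 of 16 ATF4 targets with a window (Atf3, Trib3, Chac1, Asns and Slc7a11) and in the ERAD gene Herpud1, against 4.51% of 27025 genes. It was in 0 of 9 chaperones and folding enzymes. The Trib3 match begins 14 bases after the start and is not printed. In the lines that follow, capitals mark the match, and a match on the opposite strand reads as its reverse complement.
Atf3, chr1:191183426-191183453, minus strand: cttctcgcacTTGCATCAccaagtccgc
Chac1, chr2:119351039-119351066, plus strand: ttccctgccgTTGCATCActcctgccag
Asns, chr6:7693215-7693242, minus strand: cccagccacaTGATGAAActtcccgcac
Slc7a11, first match, chr3:50443662-50443689, minus strand: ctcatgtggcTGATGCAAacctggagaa
Slc7a11, second match, chr3:50443643-50443670, minus strand: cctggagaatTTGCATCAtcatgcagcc
Herpud1, chr8:94386307-94386334, plus strand: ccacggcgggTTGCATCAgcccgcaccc

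The ER stress response element, searched as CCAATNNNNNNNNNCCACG, was present in 6 of 9 chaperones and folding enzymes, against 0.137% of all genes, and in 0 of 16 ATF4 targets. The shorter ER stress response element II, ATTGGNCCACG, was present in Herpud1 alone among the 32 genes, against 0.0444% of all genes. The unfolded protein response element, TGACGTGG, was in 0 of the 32, against 0.714% of all genes. These matches describe letters in a window. They are not evidence of binding in CLDE cells, and a window without a match says nothing about the factor. The matches before the start of the chaperone genes, and the element II match of the ERAD gene Herpud1, were these, again with the match in capitals.
Hspa5, chr2:34772015-34772053, plus strand: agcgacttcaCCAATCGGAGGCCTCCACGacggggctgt
Hsp90b1, first match, chr10:86705628-86705666, minus strand: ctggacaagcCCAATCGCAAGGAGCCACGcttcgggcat
Hsp90b1, second match, chr10:86705523-86705561, minus strand: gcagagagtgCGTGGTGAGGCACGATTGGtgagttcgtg
Calr, chr8:84847065-84847103, minus strand: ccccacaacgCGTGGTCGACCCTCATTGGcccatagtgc
Canx, chr11:50325790-50325828, minus strand: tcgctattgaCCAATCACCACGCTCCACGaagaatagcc
Pdia6, chr12:17266481-17266519, plus strand: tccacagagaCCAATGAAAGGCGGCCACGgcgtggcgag
Dnajc3, chr14:118937817-118937855, plus strand: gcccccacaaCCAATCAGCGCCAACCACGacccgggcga
Herpud1, element II, chr8:94386367-94386397, plus strand: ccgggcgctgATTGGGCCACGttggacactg

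The 250 bases before the start of Hspa5, the gene of the main ER chaperone BiP, lie at chr2:34771840-34772089 on the plus strand and place its match, in capitals, in context.
Hspa5 upstream: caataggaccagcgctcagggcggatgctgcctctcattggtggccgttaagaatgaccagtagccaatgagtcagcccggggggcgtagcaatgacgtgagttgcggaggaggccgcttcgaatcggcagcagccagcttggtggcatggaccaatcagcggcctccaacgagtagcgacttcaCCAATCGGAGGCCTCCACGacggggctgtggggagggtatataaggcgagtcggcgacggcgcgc

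All 34 genes were above background. Of their 64 probes, 60 were well above background on all 3 arrays and 4 on none. A gene's value is the mean over its measured probes of the log2 processed signal, relative to the array's 75th percentile. That percentile was 191 on the mock array, 180 on the siNeg array and 216 on the siKrt15 array, with 67.3% to 69.2% of spots well above background. Most of the 34 were bright: when the 16912 genes measured on all arrays were split into 4 equal parts by signal, 27 of the 34 lay in the brightest part, 6 in the next, 1 in the one below and 0 in the dimmest. Of the cell type markers looked up, basal epithelial genes were above background for 9 of 9 on every array. Dental epithelial genes were above background for 3 of 6 on the control arrays and 2 of 6 on the siKrt15 array, and the enamel matrix genes Ambn, Amelx and Enam had signals of at most 5.0. Mesenchymal markers were above background for 4 of 5, blood and immune markers for 4 of 5, with Ptprc at 947 to 1217, and endothelial markers for 1 of 4. Ptprc is named after its values were seen. The mesenchymal markers did not go one way: on the mock, siNeg and siKrt15 arrays the brightest probe of Dcn was at 174, 150 and 85.8, of Col1a1 at 25.7, 22.8 and 53.0, of Pdgfra at 16.51, 16.90 and 10.54 and of Col3a1 at 5.58, 7.02 and 4.84, and Lum stayed near 1.08. The part of such signals in the results was not tested.

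Across the 34 genes, signal on the siKrt15 array was lower than on both controls in most cases, by small amounts, and the 5 genes that differed most from siNeg were the ATF4 targets Ddit4, Atf3, Slc7a11 and Slc7a5 and the sensor Atf6. The median difference between siKrt15 and siNeg was −0.27, against −0.08 for all 17121 genes measured in that comparison. Of the 34, 29 were below 0, where 60.6% of all genes were, and 5 were at least 1.5-fold lower, where 8.63% of all genes were. None (0) was at least 1.5-fold higher, against 4.8% of all genes, and 0 reached a 2-fold difference, against 2.0% lower and 1.7% higher. In the brightest of the 4 parts, 2 of the 27 genes there (Ddit4 and Atf3) were at least 1.5-fold lower, against 2.6% of all genes of that part. The siKrt15 array was the lowest of the 3 for 28 of the 34, against 51.0% of all genes, and the highest for 5, against 32.7%.

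**Figure D1:**
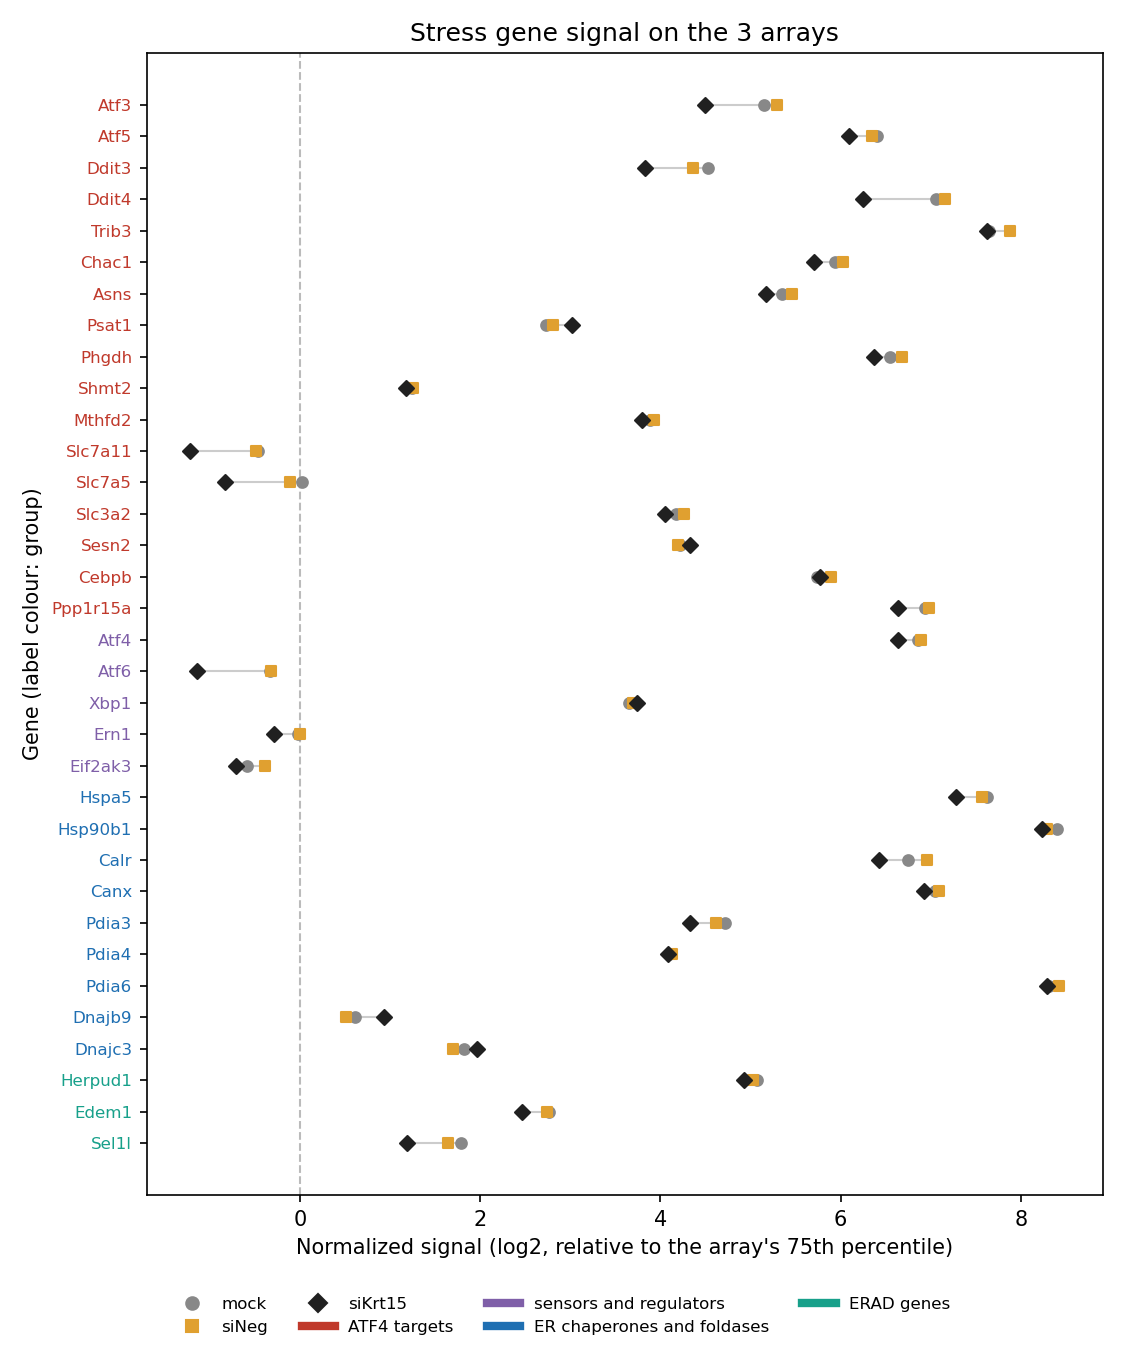
Normalized signal of each of the 34 genes on the 3 arrays, in log2 units relative to each array's 75th percentile; marker shape gives the array and label colour the group of genes. The siKrt15 marker is the leftmost of the 3 for 28 genes, with the widest gaps at Ddit4, Atf3, Slc7a11, Slc7a5 and Atf6.

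Signal level itself moved with the difference and is given here beside the counts. The 16912 genes were sorted by mean signal into 20 bins. The median difference between siKrt15 and siNeg was −0.35 in the dimmest bin, −0.01 in a middle bin (bin 14) and −0.16 in the brightest. The brightest bin held 16 of the 34 genes. All 16 were below 0, against 77.8% of the 846 genes of that bin, and their median was −0.28 against −0.16. Ranked within its own bin, each gene is free of the scale chosen for an array. On that measure 24 of the 34 lay below their bin's median (50% of all genes by definition), 8 lay in the lowest 10% (10.1%) and 1, Dnajb9, in the highest 10% (9.93%). The 8 were Ddit4, Atf3, Ddit3, Slc7a11, Slc7a5, Atf6, Calr and Sel1l.

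**Figure D2:**
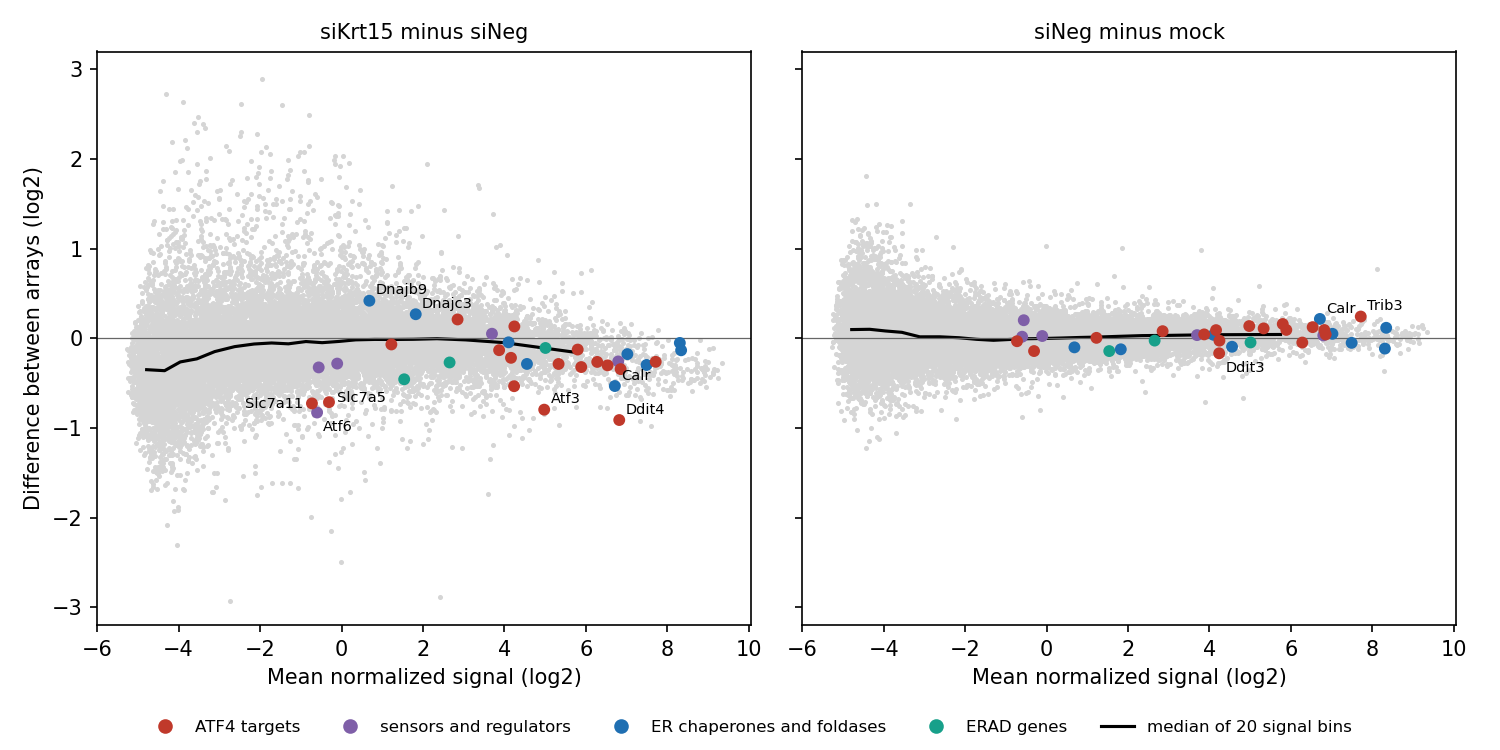
Difference in log2 signal between arrays against mean normalized log2 signal, for siKrt15 minus siNeg and for siNeg minus mock; grey points are all genes measured on the 3 arrays, coloured points are the 34 genes, and the line joins the medians of 20 signal bins. The line dips to −0.16 at the bright end for siKrt15 minus siNeg, and Ddit4, Atf3 and Calr lie below it, while the controls differ by −0.17 to 0.24 over the 34 genes.

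The scale mattered for genes near 0. The median of all genes between siKrt15 and siNeg moved from −0.08 to 0.14 when arrays were scaled to their medians and to 0.18 when scaled to spike-in probes, and it was 0.01 with quantile normalization or with the signal trend removed. Over 11 settings, the median of the 34 genes ranged from −0.31 to −0.01, and 16 genes were below 0 in all of them. Those were Ddit4, Atf3, Ddit3, Atf5, Chac1, Ppp1r15a, Asns, Phgdh, Slc7a11, Slc7a5, Atf6, Eif2ak3, Calr, Pdia3, Edem1 and Sel1l. Another 3 were above 0 in all settings, namely Dnajb9, Dnajc3 and Sesn2, and 15 changed sign. Among the 15, unscaled signals ranged from nearly equal, as for Trib3 at 42617 on the siNeg array and 42553 on the siKrt15 array, to clearly higher on siKrt15, as for Psat1 at 1262 and 1748. For Psat1, Ern1 and Xbp1 the choice of probes, and not the scale, changed the sign. Psat1 turned negative only without the filter on dim probes. Ern1 and Xbp1 changed sign only with the brightest probe per gene.

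Of the 5 stress-induced factors and their partners among the ATF4 targets, Atf3, Ddit3 and Atf5 were lower on the siKrt15 array than on siNeg in every setting, while Trib3 turned to 0.07 with quantile normalization and Cebpb to 0.14 with spike-in scaling. Atf3, a repressor of the ATF family and an early stress gene, had a normalized log2 signal of 5.15 on the mock array, 5.29 on the siNeg array and 4.49 on the siKrt15 array. The controls lay close together and siKrt15 below both, by −0.80 ± 0.20 (error-model SD) against siNeg, or 1.74-fold, and by −0.66 against mock. Over the settings the difference from siNeg was −0.84 to −0.54, and it rests on 1 probe. Ddit3, which encodes the pro-apoptotic factor CHOP, was at 4.53, 4.36 and 3.83, so siKrt15 was lowest, at −0.53 ± 0.20 against siNeg and −0.70 against mock. Its probes gave −0.54 and −0.53 against siNeg. Atf5, a factor related to ATF4, was at 6.40, 6.35 and 6.09, or −0.26 against siNeg, but only −0.0029 with spike-in scaling. Trib3, a pseudokinase that feeds back on ATF4 and CHOP, was at 7.64, 7.88 and 7.62. Here the siNeg array stood above the other arrays, and siKrt15 minus mock was −0.02. Cebpb, a partner of ATF factors, was at 5.74, 5.90 and 5.77, with siKrt15 between the controls.

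The largest difference from siNeg among the 34 genes belonged to a brake on growth; against mock, Slc7a5 differed more. Ddit4 (REDD1), an inhibitor of the growth kinase mTORC1, had a normalized log2 signal of 7.06 on the mock array, 7.16 on the siNeg array and 6.24 on the siKrt15 array. Its processed signals were 25550, 25713 and 16366, so it was lower on the siKrt15 array even before scaling. The difference was −0.91 ± 0.20 against siNeg, or 1.88-fold, and −0.82 ± 0.20 against mock, with −0.96 to −0.65 over the settings for siNeg. It rests on 1 probe, at chr10:59412486-59412545 on mm9. Sesn2, a sestrin that also restrains mTORC1 when leucine is short, did not share this: it was at 4.22, 4.19 and 4.32, or 0.13 above siNeg and above 0 in every setting. Ppp1r15a (GADD34), which directs the phosphatase that removes the eIF2alpha mark, was at 6.94, 6.98 and 6.64, or −0.34 against siNeg. Chac1, which degrades glutathione, was at 5.93, 6.03 and 5.70, or −0.32 against siNeg and −0.23 against mock. Ppp1r15a and Chac1 kept their sign in every setting, at −0.06 at the least for each against siNeg.

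Amino acid transport genes had the lowest median of the groups of ATF4 targets, −0.71 over 3 genes, but the low values came from both light chains and not from their shared heavy chain. Slc7a11, the cystine transporter xCT, was at −0.46, −0.50 and −1.22 on the mock, siNeg and siKrt15 arrays. The siKrt15 array was lower by −0.73 ± 0.21 against siNeg and −0.76 against mock, and its 3 measured probes ranged from −0.93 to −0.61 against siNeg. With the normexp background correction the difference was −0.46. That setting added an offset of 50 to every signal, which draws differences of dim probes towards 0. A smaller difference of a dim probe with normexp, here and below, was thus in part fixed beforehand. Slc7a5, the leucine transporter LAT1, was at 0.02, −0.12 and −0.83, or −0.71 ± 0.20 against siNeg and −0.86 against mock. It rests on 1 rather dim probe, with processed signals of 194, 166 and 121, at chr8:124430996-124431055 on mm9. Slc3a2, the heavy chain that both pair with, was at 4.17, 4.27 and 4.05, or −0.22 against siNeg, and turned to 0.04 with spike-in scaling. Its processed signals were 3449, 3468 and 3572.

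Synthesis enzymes differed little and went both ways. Their median against siNeg was −0.13 over 5 genes, with 0 at least 1.5-fold lower. Asns, asparagine synthetase, was at 5.35, 5.46 and 5.18, and Phgdh, which makes the first step of serine synthesis, at 6.55, 6.68 and 6.37. Both were lower on the siKrt15 array, by −0.29 and −0.30 against siNeg, and by −0.18 each against mock, where Asns turned to 0.03 with median scaling and Phgdh to 0.04 with quantile normalization. Psat1, the next enzyme of the serine pathway, went the other way, at 2.73, 2.81 and 3.02. It was 0.21 above siNeg and 0.29 above mock, on 2 probes that gave 0.21 and 0.21 against siNeg, and against siNeg it was below 0 only when a probe not above background was also averaged in. Mthfd2 and Shmt2, of mitochondrial one-carbon metabolism, were at −0.13 and −0.07 against siNeg, and turned to 0.13 and 0.19 with spike-in scaling.

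**Figure D3:**
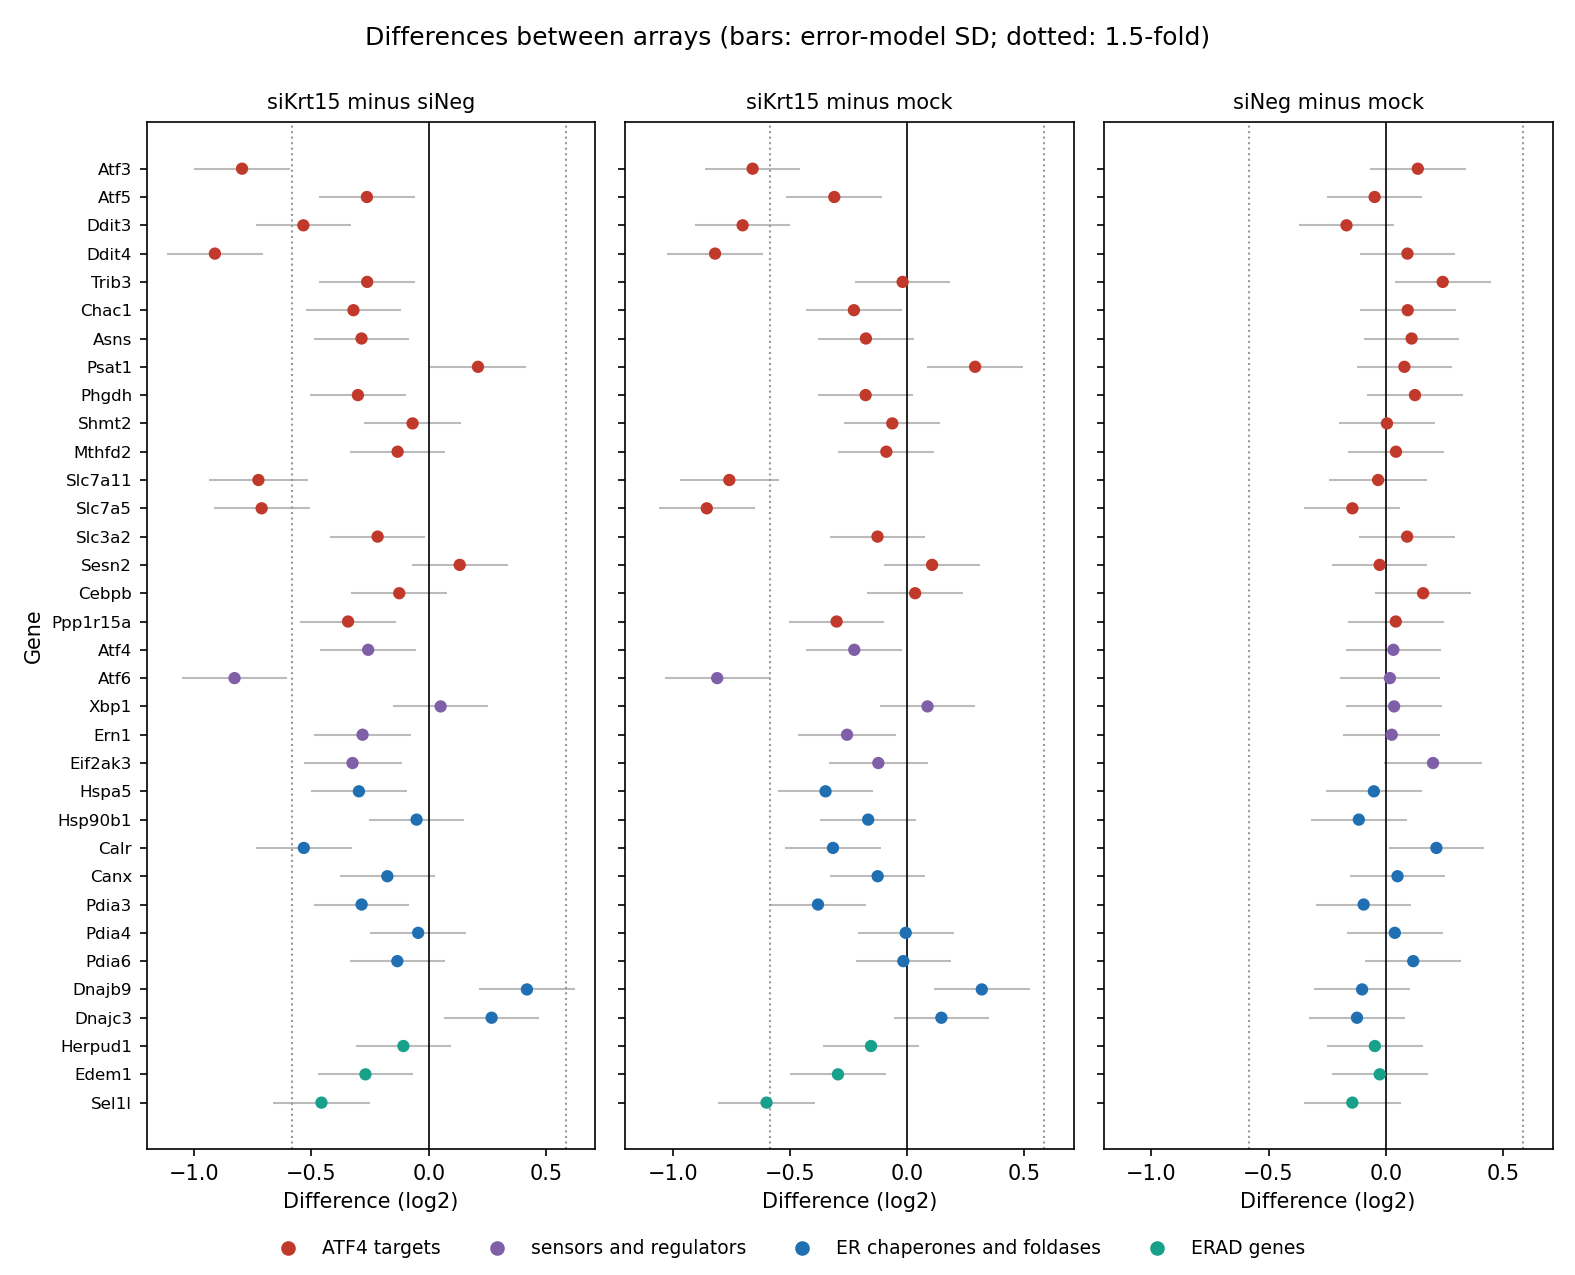
Differences in log2 signal between each pair of arrays for the 34 genes; points are coloured by group, bars are the error-model SD and dotted lines mark 1.5-fold. Against siNeg, Ddit4, Atf3, Slc7a11, Slc7a5 and Atf6 lie beyond the dotted line at the left, and in siNeg minus mock no gene of the 34 does.

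Among the sensors and regulators, Atf6 stood apart from the rest. It was at −0.34, −0.32 and −1.15 on the mock, siNeg and siKrt15 arrays, so the controls were nearly equal and siKrt15 lay below them, by −0.83 ± 0.22 against siNeg and −0.81 against mock. Its 2 probes did not match in size: the brighter, with processed signals of 978, 947 and 778 at chr1:172637679-172637738 on mm9, gave −0.54 against siNeg, and the dimmer, at 23.4, 22.1 and 12.2, gave −1.11. With the brighter probe alone Atf6 is not 1.5-fold lower. Atf4, the transcription factor itself, was at 6.86, 6.89 and 6.63, or −0.26 against siNeg and −0.23 against mock, and lay at 0.00 against siNeg with spike-in scaling. Xbp1 was at 3.65, 3.69 and 3.74, which is 0.05 above siNeg, or −0.01 by its brightest probe. Ern1 was at −0.28 against siNeg, where its probes ranged from −0.68 to 0.02, and Eif2ak3 at −0.32, where its probes gave −0.64 and −0.01. For Ern1 and Eif2ak3 the lower values came from dim probes, and their brightest probes lay near 0.

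The ER chaperones and folding enzymes were close to the general level of bright genes. Their median against siNeg was −0.13 over 9 genes, 0 of the 9 were at least 1.5-fold lower, and 4 of 9 lay below the median of their signal bin. Hspa5 (BiP), whose upstream sequence is printed above, was at 7.63, 7.57 and 7.28 on the mock, siNeg and siKrt15 arrays. It was lower by −0.30 ± 0.20 against siNeg, on 3 probes from −0.35 to −0.24, and turned to 0.01 with quantile normalization. Hsp90b1 (GRP94) was at 8.40, 8.29 and 8.24, with −0.05 against siNeg and 0.28 with quantile normalization. Calr, the lectin chaperone calreticulin, was the lowest of the chaperones against siNeg. It was at 6.75, 6.96 and 6.43, or −0.53 ± 0.20 against siNeg and −0.32 against mock, and the siNeg array was itself 0.22 above mock. Its membrane-bound relative Canx was at 7.05, 7.10 and 6.92, or −0.18 against siNeg, and turned to 0.11 with quantile normalization.

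Of the disulfide isomerases, Pdia3, which works with Calr and Canx on glycoproteins, was at 4.71, 4.62 and 4.33, or −0.29 against siNeg and −0.38 against mock. Pdia4 and Pdia6 were at −0.04 and −0.13 against siNeg and turned positive in some settings. Among the chaperone genes, Dnajb9 and Dnajc3 were above both controls. They encode J-domain co-chaperones of BiP, but this was not a trait of that class. Other J-domain genes of the ER, from the further lists, were below siNeg. Dnajb11 was at −0.39, Sec63 at −0.27, Dnajc1 at −0.04 and Dnajc10 at −0.02. Dnajc1 and Dnajc10 are named after their values were seen. Dnajb9 (ERdj4) was at 0.61, 0.51 and 0.93, with processed signals of 292, 257 and 411, so siKrt15 was the highest array. The difference was 0.42 ± 0.20 against siNeg and 0.32 against mock, and its probes gave 0.24 and 0.60. Dnajc3 (p58IPK), which also inhibits PERK, was at 1.82, 1.69 and 1.96, or 0.27 above siNeg and 0.15 above mock. Dnajc3 and Dnajb9 stayed above 0 in every setting. The chaperone genes with the ER stress response element shown above were Hspa5, Hsp90b1, Calr, Canx, Pdia6 and Dnajc3. Their differences against siNeg were, in that order, −0.30, −0.05, −0.53, −0.18, −0.13 and 0.27.

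Of the 3 ERAD genes, Sel1l and Edem1 were lower than siNeg on the siKrt15 array in every setting. Sel1l, the adaptor of the HRD1 ubiquitin ligase, was at 1.79, 1.64 and 1.19, or −0.46 ± 0.21 against siNeg and −0.60 ± 0.21 against mock. Its 3 probes ranged from −0.66 to −0.31 against siNeg, and against mock it was 1.52-fold lower but −0.34 by its brightest probe. Edem1, which takes misfolded glycoproteins towards degradation, was at 2.76, 2.74 and 2.47, or −0.27 against siNeg, but only −0.0090 with spike-in scaling. Herpud1, the ERAD gene with both kinds of promoter match, was at 5.08, 5.03 and 4.92, or −0.11 against siNeg by both probes, and turned to 0.15 with spike-in scaling.

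Set side by side, the ATF4 targets were lower than the ER genes against siNeg. The ATF4 target median was −0.29 with 4 of 17 at least 1.5-fold lower, where 8.63% of all genes were. The median of the 12 chaperone and ERAD genes was −0.16, which turned to 0.11 with spike-in scaling, with 0 of 12 at least 1.5-fold lower, a count not far from that share. The medians differed by −0.13, and by −0.15 to −0.12 over the settings, and no error could be given for this difference. Settings that only shift an array's scale, such as median or spike-in scaling, move both medians alike and cannot change this gap. The narrow range was thus in part fixed beforehand. Ranked within signal bins, 14 of 17 ATF4 targets and 6 of 12 ER genes lay below the bin median, and 5 and 2 lay in the lowest 10%. The spread within each list was wide, from −0.91 to 0.21 for the ATF4 targets and from −0.53 to 0.42 for the ER genes.

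Against mock the lists were nearly level. The ATF4 target median was −0.18 and the ER gene median −0.16, a difference of −0.02 (−0.05 to −0.01 over the settings). Here too, a shift of an array's scale could not change the difference. At least 1.5-fold lower were 5 of 17 ATF4 targets (Atf3, Ddit3, Ddit4, Slc7a11 and Slc7a5), 1 of 12 ER genes (Sel1l) and the sensor Atf6, which makes 7 of the 34, where 7.69% of all 17130 genes were. None (0) was 1.5-fold higher, where 5.83% were. Of the 34, 28 were below 0, where 58.1% of all genes were, and the median of the 34 was −0.18 against −0.06 for all genes. With median scaling all 3 medians turned positive, to 0.03 for the 34 genes and for the ATF4 targets and 0.04 for the ER genes. Both siKrt15 comparisons use the same siKrt15 array, so they are not independent of each other.

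The controls differed less. Between siNeg and mock the 34 genes ranged from −0.17 (Ddit3) to 0.24 (Trib3) with a median of 0.03 and an SD over genes of 0.11, against 0.31 for siKrt15 minus siNeg. None (0) was 1.5-fold lower or higher, where 0.856% and 2.42% of all 17416 genes were. The ATF4 target median was 0.08, which turned to −0.09 with spike-in scaling, and the ER gene median was −0.05, so the controls themselves differed by 0.13 between the lists, as much as siKrt15 and siNeg did and with the opposite sign. The siNeg array entered both comparisons.

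**Figure D4:**
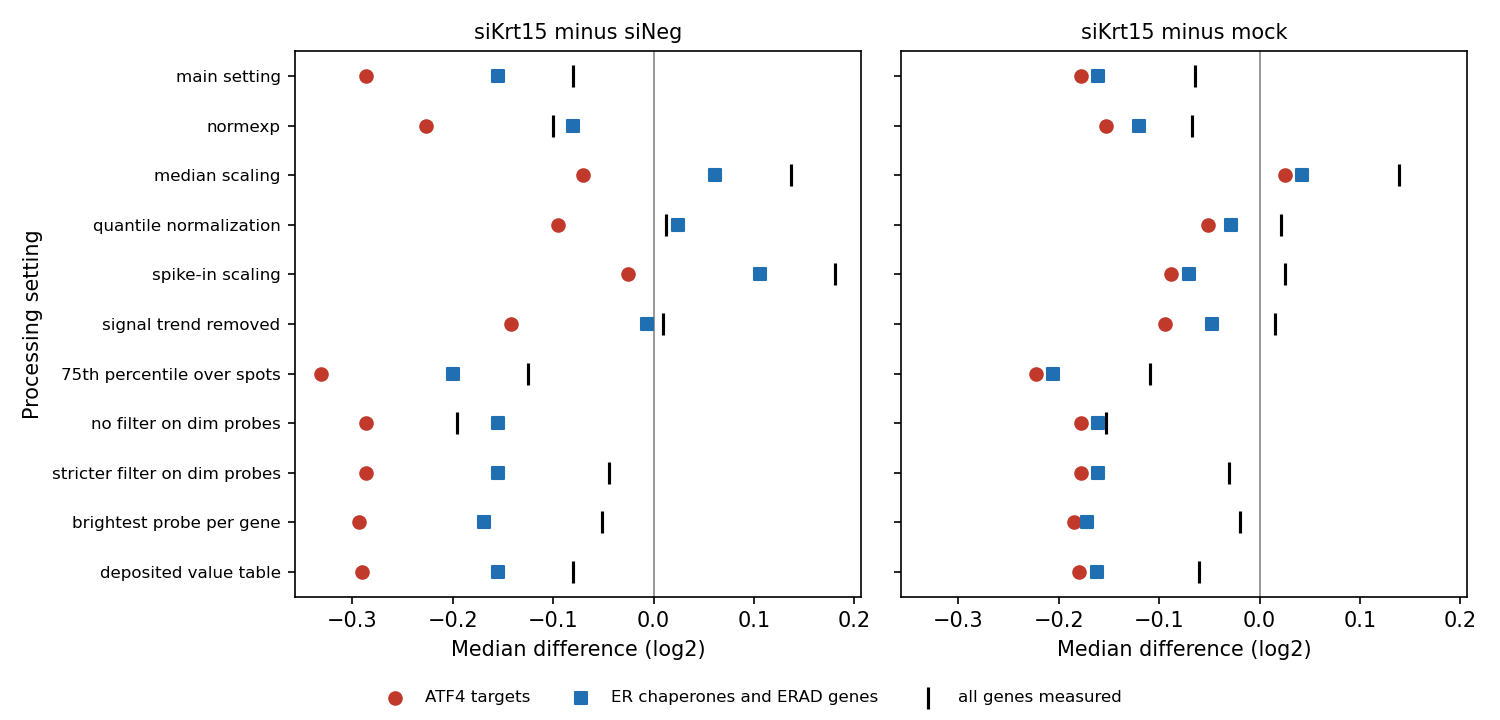
Median log2 difference of the ATF4 targets, of the chaperone and ERAD genes and of all genes measured under 11 processing settings, for siKrt15 minus siNeg and siKrt15 minus mock. The ATF4 target median lies to the left of the ER gene median in every setting, by −0.15 to −0.12 against siNeg and by −0.05 to −0.01 against mock, while both move with the scale chosen. Settings that only shift an array's scale cannot change the distance between the list medians.

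Other genes of the same pathways were read from 10 further lists. Among 12 more ATF4-responsive genes of signalling and growth, 2 passed 1.5-fold downward against siNeg and 0 upward, where 8.63% and 4.8% of all genes did, with a median of −0.29 (−0.34 to −0.03 over the settings). Those were the secreted glycoprotein Stc2, at −1.10 against siNeg and −0.76 against mock, and Klhl24, at −0.78 and −1.11. Stc2 rests on 1 rather dim probe. With normexp, Stc2 was at −0.75 and Klhl24 at −0.52 against siNeg. Ndrg1, a stress and hypoxia gene, was at −0.57 against siNeg. Of 17 further amino acid supply genes measured, 1 was 1.5-fold lower and 1 higher, near those shares, with a median of −0.12, which turned to 0.14 with spike-in scaling. The lower gene was Aldh1l2, of mitochondrial folate metabolism, at −0.84 against siNeg and −0.84 against mock. The higher was the arginine transporter Slc7a3, at 0.75, which was only 0.11 above mock, with siNeg itself at −0.64 against mock. Slc7a3 rests on 1 dim probe and was at 0.29 against siNeg with normexp. The proline enzyme Pycr1 was at −0.46.

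The translation side of the response differed little between arrays. Of 20 aminoacyl-tRNA synthetases, which charge transfer RNAs and include several ATF4 targets, 0 were 1.5-fold different from siNeg, with a median of −0.12 that turned to 0.14 with spike-in scaling. The extremes were Hars at 0.46, Dars at −0.39 and Nars at −0.34. The Hars value comes from dim signal, and with normexp it was 0.10. Among 13 genes of eIF2 and its kinases, phosphatase and exchange factor the median was −0.07, or 0.19 with spike-in scaling. Of the 13, 0 were 1.5-fold different from siNeg. Against mock 1 was at least 1.5-fold higher, where 5.83% of all genes were. The double-stranded RNA kinase Eif2ak2 (PKR) stood out at 0.58 against siNeg and 0.71 against mock, above 0 in every setting. Eif2ak2 rests on 1 probe. The haem-regulated kinase Eif2ak1 was at −0.42. The probes of Eif2ak1 ranged from −0.91 to −0.13 against siNeg, and the brightest gave −0.13. Impact, an inhibitor of the amino acid sensing kinase GCN2, was at −0.38 against siNeg and −0.57 against mock.

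Further ER genes lay near 0. The 25 further ER folding genes had a median of −0.09, with 0 at least 1.5-fold lower and 1 higher, the collagen prolyl isomerase Fkbp10 at 0.67. Fkbp10 rests on 1 dim probe and was at 0.25 with normexp. Dnajb11, another BiP co-chaperone, was at −0.39 and the cyclophilin Ppib at −0.33. The 24 further ERAD and ER stress genes measured had a median of −0.05 with 0 of 24 1.5-fold different, and the lowest was the ubiquitin ligase Marchf6 at −0.30, followed by the lectin Os9 at −0.26 and the channel protein Derl1 at −0.22, which turned to 0.04 with spike-in scaling. The 16 genes of protein entry into the ER had a median of −0.07 with 0 of 16 1.5-fold different, and the signal peptidase subunits Spcs3 and Sec11c were at −0.48 and −0.43 and the translocon partner Sec63 at −0.27. With spike-in scaling these 3 medians turned to 0.17, 0.21 and 0.19.

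**Figure D5:**
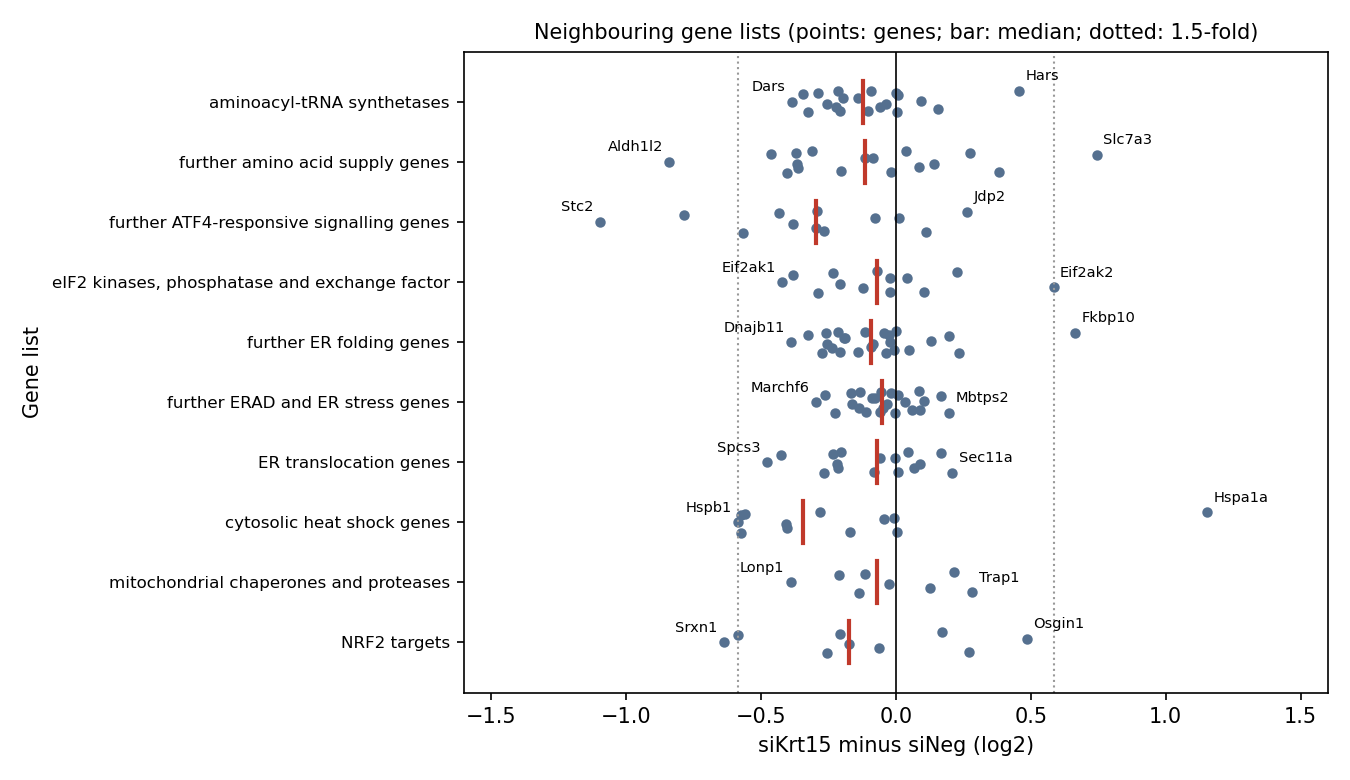
Log2 difference between siKrt15 and siNeg for the genes of 10 further lists; each point is a gene, the red bar is the list median, dotted lines mark 1.5-fold and the lowest and highest gene of each list is named. List medians lie between −0.34 for cytosolic heat shock genes and −0.05 for further ERAD genes, and Stc2, Aldh1l2, Klhl24, Slc7a3 and Hspa1a are among the genes beyond the dotted lines.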

How the data were processed

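RNA from 3 cell samples was labelled with Cy3 for arrays of 1 colour, as the labels' protocols state. Scanning software was Agilent Feature Extraction 11.5.1.1 (submitters' processing notes). In the deposited scanner files, per the file headers, the processed signal is a background-corrected intensity. The series table that the authors deposited holds log2 values that follow this signal after a constant per array.

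Each array's 75th percentile was subtracted on the log2 scale, without control and outlier spots, and spots of a probe were averaged. A probe was measured if well above background on both arrays compared. Probes were named through RefSeq, and 12865 that kept only the file's name were left out. All 34 genes are named, with the 3 largest differences from siNeg in each further list, and any others are marked. The 34 genes and the lists were chosen with earlier results of these data known. No test was possible with 1 array per group. The computation was checked on simulated data with known changes. Those changes were larger than most differences here, with less noise than the scanner's error model gives. The check thus says nothing about the precision of the differences above. Python 3.11.15 (numpy 2.4.6, pandas 2.3.3, statsmodels 0.14.6) and limma 3.58.1 in R 4.3.3 were used.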

Additional observations from a re-analysis of the deposited data

How the results depend on the processing

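Of 10 alternatives, those that change the scale moved the list values most. Between siKrt15 and siNeg, the ATF4 target median was −0.070 with median scaling and −0.026 with spike-in scaling, the ER gene median was 0.061 and 0.11, and the median of the 34 genes was −0.050 and −0.0059. The number of ATF4 targets at least 1.5-fold lower, 4 as reported, was 2 with normexp and 1 with median or spike-in scaling, while the share of all genes so far down went from 8.63% to 0.859%, 3.98% and 3.42%. Between siKrt15 and mock that number, 5 as reported, was 2 with median scaling, where the share of all genes went from 7.69% to 3.1%. The 1 ER gene at least 1.5-fold lower than mock, Sel1l, was 0 with normexp, median scaling, quantile normalization, spike-in scaling, the signal trend removed or the brightest probe. The alternatives for the median of the 34 genes and for the further lists were added after the data were seen. No paired analysis was possible because each group has 1 array, and for the same reason no array could be left out in turn. The probes of the 20 genes with more than 1 measured probe spanned a median of 0.13 between siKrt15 and siNeg, and 18 of the 20 went 1 way. The number of arrays limits the precision, and dim probes such as those of Slc7a5, Slc7a11 and Atf6 limit it further.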

Other observations

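Stress genes outside the ER were read from 3 more lists. Cytosolic heat shock genes, which HSF1 drives when proteins misfold in the cytosol, had the lowest median of the 10 further lists between siKrt15 and siNeg. It was −0.34 over 12 genes, −0.39 to −0.08 over the settings, against −0.08 for all genes. Against siNeg, 1 of the 12 was at least 1.5-fold lower and 1 higher, where 8.63% and 4.8% of all genes were. The median against mock was −0.19, which turned to 0.01 with median scaling. The small heat shock protein gene Hspb1 was at −0.59 against siNeg and −0.66 against mock, with normalized log2 signals of 8.85, 8.78 and 8.19 on the mock, siNeg and siKrt15 arrays. Hsph1, Hspa8, Hspb8, Hspa1b, Dnajb1, Bag3, Hsf1, Dnaja1 and Hsp90ab1 are named here after their values were seen. Hsph1 was at −0.56 and −0.65, Hspa8 at −0.41 and −0.54, and Hspb8 at −0.57 and −0.52. Dnajb1, Bag3 and Hsf1 lay near 0, at −0.01, −0.04 and 0.003 against siNeg. Dnaja1 and Hsp90ab1 were at −0.17 and −0.28 against siNeg. Hsp90aa1 was at −0.57 against siNeg and −0.16 against mock, with siNeg above mock by 0.42. Its 3 probes ranged from −1.31 to −0.16 against siNeg, and the brightest gave −0.16. Hspa1a and Hspa1b are near-identical copies whose probes may share RNA, and they went opposite ways, at 1.15 and −0.41 against siNeg. The Hspa1a value comes from dim signal. With normexp, whose offset draws such values towards 0, it was 0.09.

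The 8 mitochondrial chaperones and proteases had a median of −0.07, which turned to 0.19 with spike-in scaling, with the protease Lonp1 at −0.39, Trap1 at 0.28 and Htra2 at 0.22. Of 9 measured targets of NRF2, the oxidative stress factor, 2 were at least 1.5-fold lower than siNeg and 0 higher, where 8.63% and 4.8% of all genes were, with a median of −0.18 that turned to 0.09 with spike-in scaling. Those were sulfiredoxin (Srxn1) at −0.64 and haem oxygenase (Hmox1) at −0.59, against −0.43 and −0.78 from mock. Osgin1 went the other way, at 0.48 against siNeg and 0.67 against mock. Slc7a11, described above with the ATF4 targets, is also a known NRF2 target.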
